A study of Mus musculus with 18 samples.

Results

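H19, Igf2, Dlk1, Meg3, Peg3, Mest, Plagl1, Cdkn1c and Grb10 are imprinted genes, and their RNA was followed in the mouse large bowel and in tumor organoids. They are 9 of 36757 genes in the deposited count table and were picked by symbol, with results of these libraries already known, so their levels and differences are given as a description, with no p-value. The 18 libraries come from C57BL/6 mice in 3 models, and each model holds 3 libraries labelled wild type (WT, called RNF138fl/fl in the treatment protocol) and 3 labelled RNF138-/- (KO). RNF138 is a RING-type ubiquitin ligase, and the comparison asks what its loss does in inflamed colon, in colitis-associated cancer and in the tumor cells themselves. Mice of all models were between 6 and 8 weeks old when treatment began. In the colitis model they drank 2% dextran sulfate sodium (DSS), which injures the colon lining, for 7 days and plain water for 14 days. There were 2 repeats of the cycle and 4 weeks of rest. The colitis-associated cancer (CAC) model had an injection of the carcinogen azoxymethane (AOM) at 10 mg/kg, then 4 days later the DSS cycles. Organoids were grown in matrigel from digested bowel fragments carrying CAC tumors. Male and female mice of both genotypes were housed together. How the allele was deleted, in which cells, and whether each library is 1 animal or 1 culture was not given in the sources used here, so the spread between libraries may be partly technical.

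Genomic imprinting means that a gene is transcribed mainly from the copy inherited from the mother or from the father, according to DNA methylation laid down in the germ line. Igf2 and the noncoding RNA H19 share enhancers on chromosome 7, where the factor CTCF binds the unmethylated maternal control region and leaves the enhancers to H19, while the paternal copy makes Igf2. Dlk1 (paternal) and Meg3 (maternal) form a like pair on chromosome 12. Several of these genes are high in the fetus, fall after birth and come back in regenerating tissue and in tumors. C57BL/6 is an inbred strain, so the counts sum both parental copies and cannot say which copy was read.

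The noncoding members carry microRNAs, which are printed here because they are what these transcripts are known to give rise to. The RefSeq entries (GRCm38.p6) lie inside exons of H19 and Meg3, and capitals mark the seed, bases 2 to 8 from the 5′ end, with which a microRNA pairs to its targets.
mmu-miR-675-5p, in H19: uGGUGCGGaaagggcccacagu
mmu-miR-675-3p, in H19: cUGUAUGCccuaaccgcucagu
mmu-miR-770-5p, in Meg3: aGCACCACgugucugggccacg
mmu-miR-770-3p, in Meg3: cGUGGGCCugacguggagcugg
Mmu-miR-1906 also lies in a Meg3 exon and is not shown. None of these seeds was shared with another of the 1679 mature mouse microRNAs in the table. Small RNA was not sequenced, so the values of H19 and Meg3 below are those of the long transcripts.

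Total counts were between 11514716 and 24390082 per library. Levels are counts per 1000000 (CPM) after TMM scaling, which corrects for differences in RNA composition between libraries, and differences are log2 fold changes of KO-labelled over WT-labelled libraries with a standard error (SE) from edgeR. Rnf138 itself was not lower in the KO-labelled libraries. It was between 15.6 and 25.1 CPM in WT-labelled and between 17.97 and 19.4 in KO-labelled colitis libraries, and between 37.7 and 55.6 against 42.8 to 50.2 in the organoids. In CAC it was higher in the KO-labelled libraries, between 39.6 and 45.7 CPM against 21.5 to 27.5 (log2 fold change 0.72, SE 0.14, edgeR adjusted p = 0.0426). Which exons were deleted is not given, so a count over the whole gene may not test the labels, and groups are named as labelled throughout. The tissue is labelled colorectal, and summed epithelial markers (8 genes such as Epcam and Vil1) were between 5469 and 16190 CPM in all libraries. Organoids also held fibroblast markers (9 genes such as Col1a1 and Pdgfra), between 8998 and 23380 CPM in WT-labelled and between 39260 and 48880 in KO-labelled libraries, above the 935 to 1978 of the tissue libraries. The 4 Y-linked genes counted were at 0 in the 3 WT-labelled organoid libraries and summed to between 242 and 281 CPM in the KO-labelled ones, so sex and genotype cannot be told apart in the organoids.

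H19, the maternal noncoding RNA, was lowest in colitis, higher in CAC and highest in the organoids under both labels. In colitis the WT-labelled libraries held 0.223, 0.0561 and 0.124 CPM in replicates 1 to 3, which is between 1 and 4 reads each, and the KO-labelled ones 0.658, 0.0599 and 0.361 CPM. In CAC the values were 1.78, 8.50 and 0.568 CPM in WT-labelled and 6.85, 60.0 and 7.69 CPM in KO-labelled libraries. Organoids reached 195, 282 and 359 CPM in WT-labelled and 73.5, 82.0 and 88.4 CPM in KO-labelled libraries. H19 was thus at the limit of detection in colitis, uneven between CAC libraries and high in every organoid library, with each WT-labelled organoid library above each KO-labelled one. Summed over libraries and scaled to depth, the H19 reads of CAC over those of colitis gave a ratio of 33.3 (95% interval 15.9 to 83.7, counting error only) in WT-labelled and 75.5 (48.2 to 125.7) in KO-labelled libraries. Replicate 2 supplied 181 of the 216 WT-labelled and 1484 of the 1783 KO-labelled H19 reads in CAC, and without it the fitted log2 fold change of CAC over colitis was 3.12 in place of 4.76 (WT-labelled) and 4.31 in place of 6.09 (KO-labelled). The log2 fold change of KO over WT was 2.68 (SE 1.19) in CAC, and it was 0.95 without KO-labelled replicate 2 and 4.30 without WT-labelled replicate 2. In the organoids it was −1.82 (SE 0.22).

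Igf2, the paternal growth factor of the same locus, did not follow H19 in level. It was between 0.224 and 0.447 CPM in WT-labelled and between 0.299 and 0.464 CPM in KO-labelled colitis libraries. CAC libraries held 0.0615, 0.0939 and 0.189 CPM (WT-labelled) and 0, 0.404 and 0.0904 CPM (KO-labelled), at most 10 reads each. The organoids had 1.73, 2.31 and 0.876 CPM in WT-labelled and 0.772, 0.952 and 1.34 CPM in KO-labelled libraries, which overlap, with a log2 fold change of −0.71 (SE 0.43). Igf2 was therefore near the floor of these libraries everywhere and highest in the organoids, where its summed reads, scaled to depth, over those of CAC gave ratios of 15.5 (6.34 to 49.2) in WT-labelled and 5.53 (2.89 to 11.4) in KO-labelled libraries. Per kb of exon, the WT-labelled organoids held 113.3 CPM/kb of H19 and 0.286 CPM/kb of Igf2. GENCODE M21 (mm10) places both genes on the minus strand of chromosome 7, H19 between bases 142575529 and 142578143 and Igf2 between 142650766 and 142666816. Of the exon sequence of Igf2, 62.8% is shared with a same-strand readthrough model (Gm49394) that has no line in the count table. How reads over these exons were assigned is not given, so the level of Igf2 is uncertain.

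**Figure D1:**
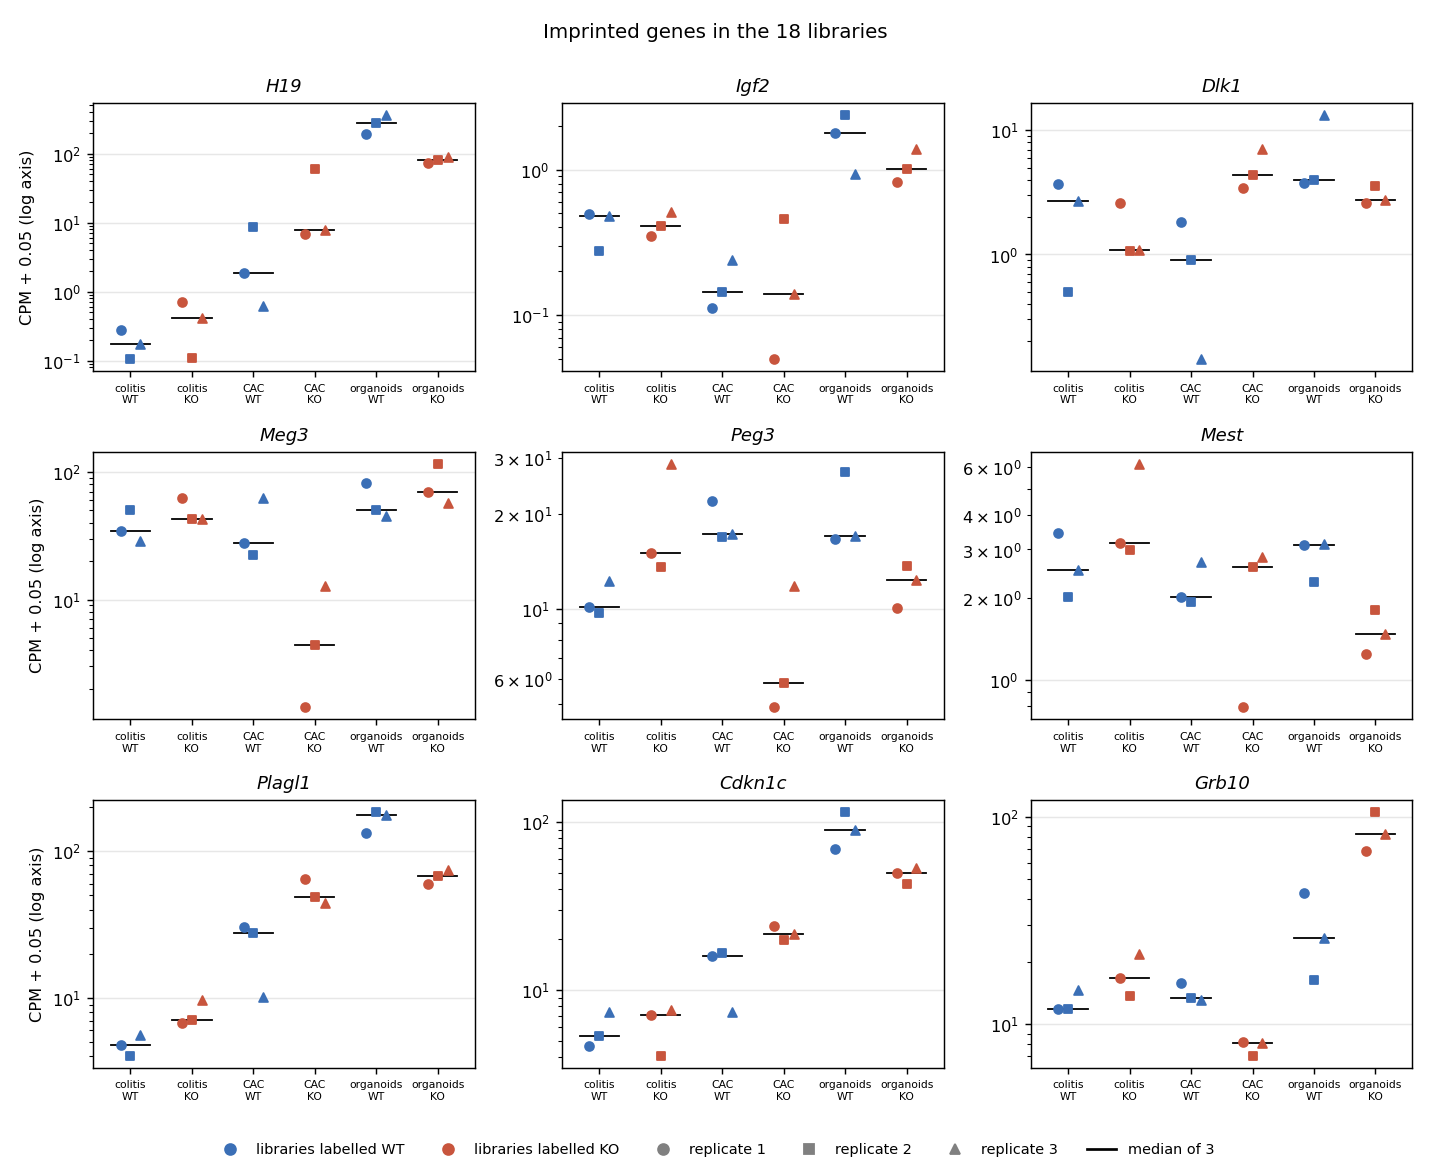
Level of each of the 9 imprinted genes (CPM + 0.05, log axis, 1 panel per gene) in every library, grouped by model and labelled genotype; colours give the label, shapes the replicate number and bars the median of 3 libraries. H19, Plagl1 and Cdkn1c have their highest values in the organoids and their lowest in colitis, with WT-labelled organoids at 195 to 359 CPM for H19, while the medians of Meg3, Peg3 and Grb10 are lowest in the KO-labelled CAC libraries.

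Plagl1 and Cdkn1c, both growth-restraining genes, had group means in the same order of models as H19. Plagl1 encodes a zinc finger transcription factor that arrests the cell cycle and is known to bind the H19 enhancers. Its levels in colitis were 4.74, 3.98 and 5.57 CPM in WT-labelled and 6.70, 7.01 and 9.63 CPM in KO-labelled libraries. CAC gave 30.4, 27.4 and 10.0 CPM (WT-labelled) against 64.4, 48.4 and 44.6 CPM (KO-labelled), and the organoids 133, 185 and 178 against 59.7, 68.0 and 74.7 CPM. The KO-labelled libraries lay above every WT-labelled one in both tissues and below every one in the organoids. The log2 fold changes were 0.71 (SE 0.27) in colitis, 1.16 (SE 0.40) in CAC and −1.33 (SE 0.16) in the organoids.

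Cdkn1c encodes p57, the cyclin-dependent kinase inhibitor of the maternal Kcnq1 domain. It was between 4.58 and 7.36 CPM in WT-labelled and between 4.01 and 7.57 CPM in KO-labelled colitis libraries, which overlap. The CAC values were 15.98, 16.5 and 7.38 CPM (WT-labelled) and 24.2, 19.8 and 21.4 CPM (KO-labelled), and those of the organoids 69.4, 115 and 90.1 against 49.4, 42.5 and 53.0 CPM. As for Plagl1, the KO-labelled libraries were all higher in CAC (log2 fold change 0.66, SE 0.31) and all lower in the organoids (−0.96, SE 0.19). WT-labelled CAC replicate 3, the library with the fewest reads, held the least H19, Plagl1, Cdkn1c and Dlk1 of its group and the most smooth muscle marker RNA (8379 CPM against 2505 and 3578). Antisense Gm44732 overlaps 30.7% of the exon sequence of Cdkn1c, and whether the counting used strand is not given.

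Grb10 had genotype differences opposite in sign to those of Plagl1 in CAC and in the organoids. It encodes an adaptor that binds the insulin and IGF1 receptors and dampens their signal, and is maternally transcribed in most tissues. In colitis it was between 11.7 and 14.5 CPM in WT-labelled and between 13.6 and 21.6 CPM in KO-labelled libraries. CAC held 15.8, 13.4 and 12.96 CPM against 8.13, 7.00 and 8.09 CPM, and the organoids 43.0, 16.2 and 25.9 CPM against 68.4, 105 and 82.4 CPM. Every KO-labelled library was thus below the WT-labelled ones in CAC and above them in the organoids, with log2 fold changes of −0.91 (SE 0.18) and 1.55 (SE 0.32), and 0.45 (SE 0.24) in colitis.

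Promoters of Plagl1 and Grb10 are shown because these genes had opposite differences in the organoids and are rich in CG dinucleotides, the sites of methylation. Each line is the 250 bases before a RefSeq start site (GRCm38.p6), with CG in capitals, which is 19 for Plagl1 and 40 for Grb10. A second start site of Grb10, with 8 CG in its 250 bases, is not shown.
Plagl1, chr10:13090582-13090831, plus strand: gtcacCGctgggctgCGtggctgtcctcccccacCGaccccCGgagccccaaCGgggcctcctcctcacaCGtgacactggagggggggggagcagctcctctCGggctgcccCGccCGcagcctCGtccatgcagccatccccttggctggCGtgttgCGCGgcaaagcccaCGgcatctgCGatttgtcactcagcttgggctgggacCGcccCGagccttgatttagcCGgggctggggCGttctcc
Grb10, chr11:12037421-12037670, minus strand: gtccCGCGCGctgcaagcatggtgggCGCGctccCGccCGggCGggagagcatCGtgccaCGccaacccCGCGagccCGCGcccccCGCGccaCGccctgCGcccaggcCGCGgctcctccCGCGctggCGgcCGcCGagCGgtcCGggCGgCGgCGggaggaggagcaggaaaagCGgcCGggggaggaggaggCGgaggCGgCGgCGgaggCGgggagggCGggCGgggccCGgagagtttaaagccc
The letters TGCCGC, the motif that the imprint-keeping zinc finger protein ZFP57 recognises when methylated, occurred on either strand in 6 of the 14 start regions of 300 bases of the 7 members with an entry (those of Igf2, Meg3, Plagl1 and Grb10, and 2 of Mest that overlap each other), and in 11.6% of all 32851 start regions. The motif holds a CG itself. The 6 start regions with it had between 13 and 45 CG, against a median of 7 over all start regions. The shares were not matched for CG, so nothing is read from their difference. Methylation was not measured here. In GENCODE M21, Plagl1 spans 13060504 to 13131694 of chromosome 10 and Grb10 11930508 to 12038683 of chromosome 11, and Cdkn1c spans 143458339 to 143461050 of chromosome 7.

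Dlk1, Meg3, Peg3 and Mest showed no common order of the models. Dlk1 (109452823 to 109463336) and Meg3 (109541001 to 109571726) lie on the plus strand of chromosome 12, Peg3 on chromosome 7 (6703892 to 6730431) and Mest on chromosome 6 (30723547 to 30748465). Dlk1 is a transmembrane protein of the Notch ligand family that keeps precursor cells undifferentiated. It was 3.63, 0.449 and 2.66 CPM against 2.57, 1.02 and 1.03 CPM in colitis (WT-labelled against KO-labelled), with a log2 fold change of −0.55 (SE 0.70). In CAC it was 1.78, 0.845 and 0.0946 CPM against 3.40, 4.29 and 7.01 CPM (2.33, SE 0.73, and from 1.88 without WT-labelled replicate 3 to 3.15 without WT-labelled replicate 1), and in the organoids 3.75, 3.91 and 13.2 CPM against 2.53, 3.49 and 2.69 CPM. The organoid difference of −1.28 (SE 0.50) rests largely on WT-labelled replicate 3, and it was −0.43 without that library.

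Meg3, the growth-restraining maternal RNA of the Dlk1 locus, was lower in the KO-labelled CAC libraries than in any library of the other groups. It was between 28.8 and 62.8 CPM over all colitis libraries and between 45.4 and 116 CPM over all organoid libraries. CAC held 27.9, 22.1 and 62.1 CPM in WT-labelled and 1.38, 4.33 and 12.8 CPM in KO-labelled libraries, a log2 fold change of −2.65 (SE 0.81), which was −2.04 without WT-labelled replicate 3 and −3.73 without KO-labelled replicate 3. In colitis and the organoids the groups overlapped, with 0.38 (SE 0.26) and 0.40 (SE 0.30). Dlk1 and Meg3 thus differed in opposite directions in CAC, and all 6 library values of each were apart between the labels.

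Peg3, a paternally transcribed zinc finger gene known from p53-mediated cell death and stem cells, had 10.1, 9.65 and 12.2 CPM in WT-labelled and 15.0, 13.5 and 28.8 CPM in KO-labelled colitis libraries. In CAC it was 21.9, 16.9 and 17.2 CPM against 4.83, 5.78 and 11.8 CPM, and in the organoids 16.6, 27.0 and 16.9 CPM against 10.0, 13.7 and 12.3 CPM. The groups did not overlap in any model, higher in the KO-labelled libraries in colitis (0.85, SE 0.32, and 0.41 without KO-labelled replicate 3) and lower in CAC (−1.37, SE 0.36) and the organoids (−0.79, SE 0.23). Mest, a paternally transcribed hydrolase of mesoderm, stayed between 0.743 and 6.13 CPM over all libraries. Its groups overlapped in colitis (0.64, SE 0.39) and CAC (−0.14, SE 0.50), and in the organoids 3.05, 2.23 and 3.10 CPM stood against 1.19, 1.75 and 1.42 CPM (−0.97, SE 0.29).

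**Figure D2:**
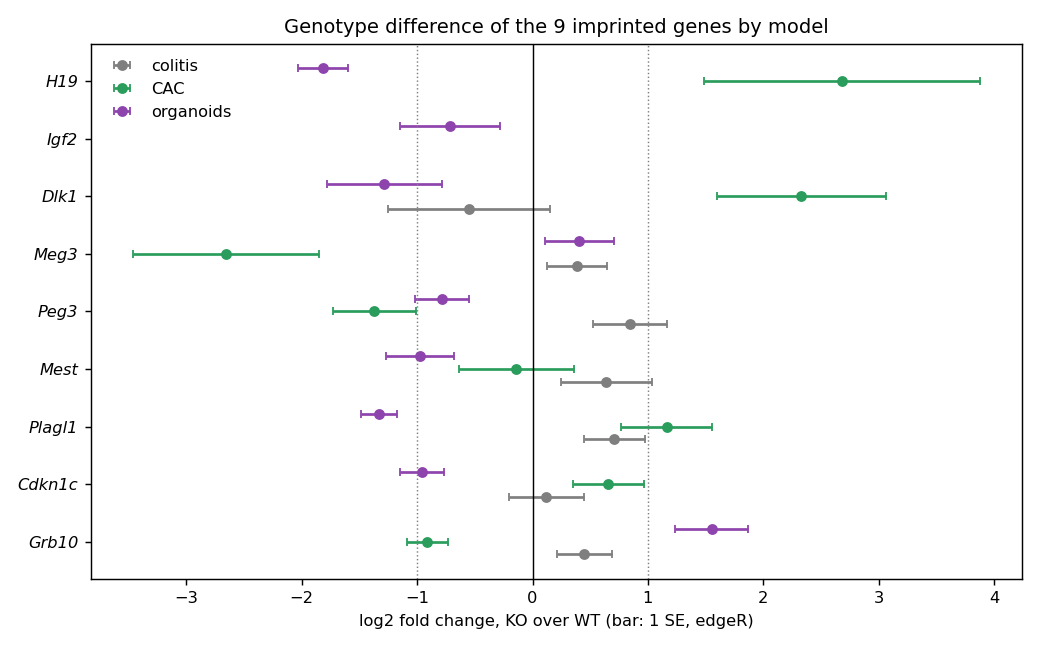
Log2 fold change of KO-labelled over WT-labelled libraries (x axis) for each of the 9 imprinted genes (y axis) in colitis, CAC and organoids, with bars of 1 SE from edgeR and dotted lines at a 2-fold difference. Plagl1, Cdkn1c, H19 and Dlk1 lie right of 0 in CAC and left of 0 in the organoids, and Grb10 lies left of 0 in CAC (−0.91) and right of it in the organoids (1.55).

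A gene was counted as changed at an edgeR adjusted p under 0.05, over all genes tested, with a fold of at least 2. By that count 0 of 7 members tested in colitis, 0 of 8 in CAC and 3 of 9 in the organoids (Grb10 higher, H19 and Plagl1 lower) were changed, where 0.0902%, 5.37% and 15.0% of all genes tested were. The libraries of the 2 labels did not overlap for 2, 6 and 7 members, and for 17.2%, 45.2% and 53.3% of all genes. Since the members were chosen with these differences known, nothing is read from their counts. H19 and Igf2 in colitis and Igf2 in CAC did not pass the low-count filter of those fits. In bulk RNA, fewer cells of a type and less RNA per cell cannot be told apart. In CAC, summed smooth muscle markers were between 2505 and 8379 CPM in WT-labelled and between 113 and 242 CPM in KO-labelled libraries, with 6 of 6 genes lower in every library. Of the other markers, 5 of 6 of neurons and glia, 4 of 5 of fat cells (Adipoq and Lep at 0 in the KO-labelled group) and 4 of 5 of enteroendocrine cells were lower in every library. So were 4 of 8 epithelial markers, which summed to between 6615 and 8053 CPM in KO-labelled and between 8176 and 16190 CPM in WT-labelled libraries. The organoids labelled KO had 8 of 9 fibroblast and 5 of 6 smooth muscle markers higher and 5 of 8 epithelial markers lower in every library. They also had 4 of 6 leukocyte markers higher in every library, with a summed level between 86.6 and 130.2 CPM against 7.74 to 15.6, and Cd3e at 0. Their part in the results was not tested.

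Of 76 further imprinted genes that were listed by domain, 68 were in the table. Whether each of them is imprinted in colon or in organoids was not measured. In colitis 0 of 52 tested changed by edgeR, 6 had an unadjusted p under 0.05 (10.4% of all genes did), and DESeq2 called Pdk4 and Slc22a3 (2.06% of all genes). With the replicate number as a block, 1 gene passed in colitis, Pdk4, a mitochondrial kinase that limits glucose oxidation, beside 0.535% of all genes. It was between 4.99 and 7.80 CPM in WT-labelled and between 20.3 and 63.0 CPM in KO-labelled libraries. KO-labelled colitis replicate 3 was the highest for Pdk4 and for Slc22a3 (7.57 CPM against 0.957 and 1.38), and also for summed fat cell markers (155.7 CPM against 22.5 and 26.1), whose part was not tested. In CAC 3 of 50 fell and 0 rose (6.0%, beside 5.37% of all genes), with a median log2 fold change of −0.04 over the list and 0.01 over all genes. Ndn, the neuronal growth suppressor necdin of the Snrpn domain, went from 4.55, 4.04 and 11.4 CPM to 0, 0 and 0.316 CPM (log2 fold change −5.93, SE 1.10, edgeR adjusted p = 0.0381). Begain, next to Dlk1, went from between 1.29 and 1.61 to between 0.0809 and 0.319 CPM (−3.24, SE 0.52, edgeR adjusted p = 0.0311, and −4.07 without KO-labelled replicate 1). Sgce, the ε-sarcoglycan gene beside Peg10, went from between 8.59 and 13.5 to between 3.72 and 4.75 CPM (−1.40, SE 0.27, edgeR adjusted p = 0.0401). All 3 genes lost the call when any library other than WT-labelled replicate 3 was left out, with edgeR adjusted p up to 0.163. All 3 were also lost with Y-linked RNA as a covariate, where 0 genes in all passed as higher and 25 as lower. The fitted differences of these 3 were not smaller there. Every CAC library held Y-linked RNA (between 147.6 and 228.4 CPM), so the covariate does not set male against female libraries. Since 2 KO-labelled libraries had no Ndn read, its fold is poorly fixed, and it ran from −5.28 without WT-labelled replicate 3 to −12.4 with the covariate. All smooth muscle markers and 5 of 6 neuronal and glial ones were lower in the same libraries. The 954 calls over all CAC genes fell to 0 without KO-labelled replicate 1 or 2.

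In the organoids 10 of 55 tested imprinted genes changed (18.2%, beside 15.0% of all genes), 7 higher and 3 lower, and the list's median log2 fold change was 0.11 against −0.04 over all genes. The largest rise among them was of Dcn, the collagen-binding proteoglycan decorin of fibroblasts, from between 634 and 1150 CPM in WT-labelled to between 3349 and 3734 CPM in KO-labelled libraries (2.03, SE 0.24, edgeR adjusted p = 0.00156). Sgce rose from between 17.5 and 33.1 to between 59.6 and 75.6 CPM (1.48, SE 0.24, edgeR adjusted p = 0.00403), Ndn from between 7.55 and 12.3 to between 20.1 and 21.9 CPM (1.10, SE 0.19, edgeR adjusted p = 0.00528), and Tfpi2, a protease inhibitor of the matrix, from between 5.42 and 9.71 to between 14.5 and 16.3 CPM (1.10, SE 0.23, edgeR adjusted p = 0.00946). Dcn and Sgce, and with them the falls of Pdk4 and of the organic cation transporter Slc22a3, passed whichever organoid library was left out, although Slc22a3 was lost with a fit of all libraries. Pdk4 fell from between 40.1 and 72.1 to between 14.9 and 19.03 CPM (−1.73, SE 0.23, edgeR adjusted p = 0.00213), and Slc22a3 from between 16.4 and 24.4 to between 6.46 and 8.43 CPM (−1.53, SE 0.20, edgeR adjusted p = 0.00213). The amino acid transporter Slc38a4 was the other call (−1.18, SE 0.35, edgeR adjusted p = 0.0312), and it was lost without any 1 library except WT-labelled replicate 3. Ndn lost its call without WT-labelled replicate 3 and Tfpi2 without WT-labelled replicate 2, and Ndn and Slc38a4 were also lost with a fit of all libraries.

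**Figure D3:**
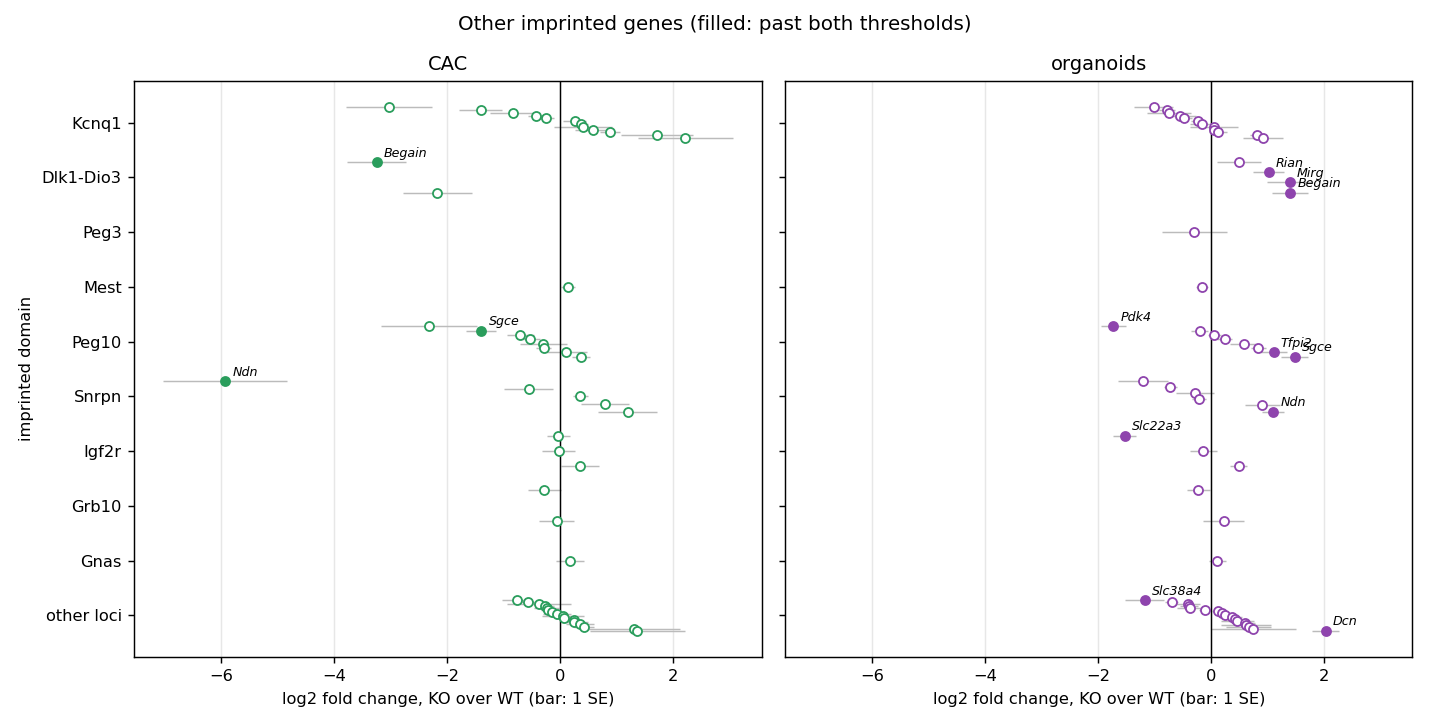
Log2 fold change of KO-labelled over WT-labelled libraries (x axis, bars of 1 SE) of the other imprinted genes tested in CAC (left) and organoids (right), arranged by imprinted domain (y axis); filled points passed the adjusted p and the 2-fold threshold. Begain, Sgce and Ndn are filled on the left side in CAC (−3.24, −1.40 and −5.93) and on the right side in the organoids (1.40, 1.48 and 1.10).

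Genes of the Dlk1-Dio3 domain are given together, as neighbours of Dlk1 and Meg3. The maternal noncoding RNAs Meg3, Rian and Mirg are thought to be pieces of 1 long transcription unit, and Rian and Mirg host small nucleolar RNAs and microRNAs. Rian was 11.3, 10.3 and 17.8 CPM in WT-labelled and 1.01, 2.31 and 5.70 CPM in KO-labelled CAC libraries, lower in each (−2.18, SE 0.61) without passing in the edgeR fit, although it passed by DESeq2, with no low-count filter and with a fit of all libraries. In the organoids it was 76.9, 39.6 and 35.0 CPM against 98.7, 123.6 and 92.7 CPM, a rise that passed (1.02, SE 0.28, edgeR adjusted p = 0.0241). Mirg rose there from between 1.08 and 2.65 to between 3.66 and 6.88 CPM (1.39, SE 0.40, edgeR adjusted p = 0.0298), and Begain from between 2.79 and 6.40 to between 10.9 and 17.7 CPM (1.40, SE 0.32, edgeR adjusted p = 0.0121). The calls of Rian and Mirg were lost without any 1 organoid library except WT-labelled replicate 1, that of Rian also under upper-quartile scaling, and that of Begain without KO-labelled replicate 2. With a fit of all libraries Rian and Begain were lost too. Dio3, the paternal thyroid hormone deiodinase at the far end of the domain, had at most 13 reads in any tissue library. In the organoids it held 12.9, 5.18 and 14.6 CPM against 10.4, 22.8 and 14.0 CPM, which overlap. The genotype difference itself differed between CAC and organoids for Rian by 3.16 (SE 0.62, edgeR adjusted p = 0.0025) and for Begain by 4.63 (SE 0.87, edgeR adjusted p = 0.00172) on the log2 scale. Without a KO-labelled CAC library these ran from 2.77 to 4.01 for Rian and from 4.30 to 5.46 for Begain. Such a difference passed for 18 of 58 imprinted genes and 18.9% of all genes between organoids and CAC, and for 8 of 58 and 11.9% between CAC and colitis.

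**Figure D4:**
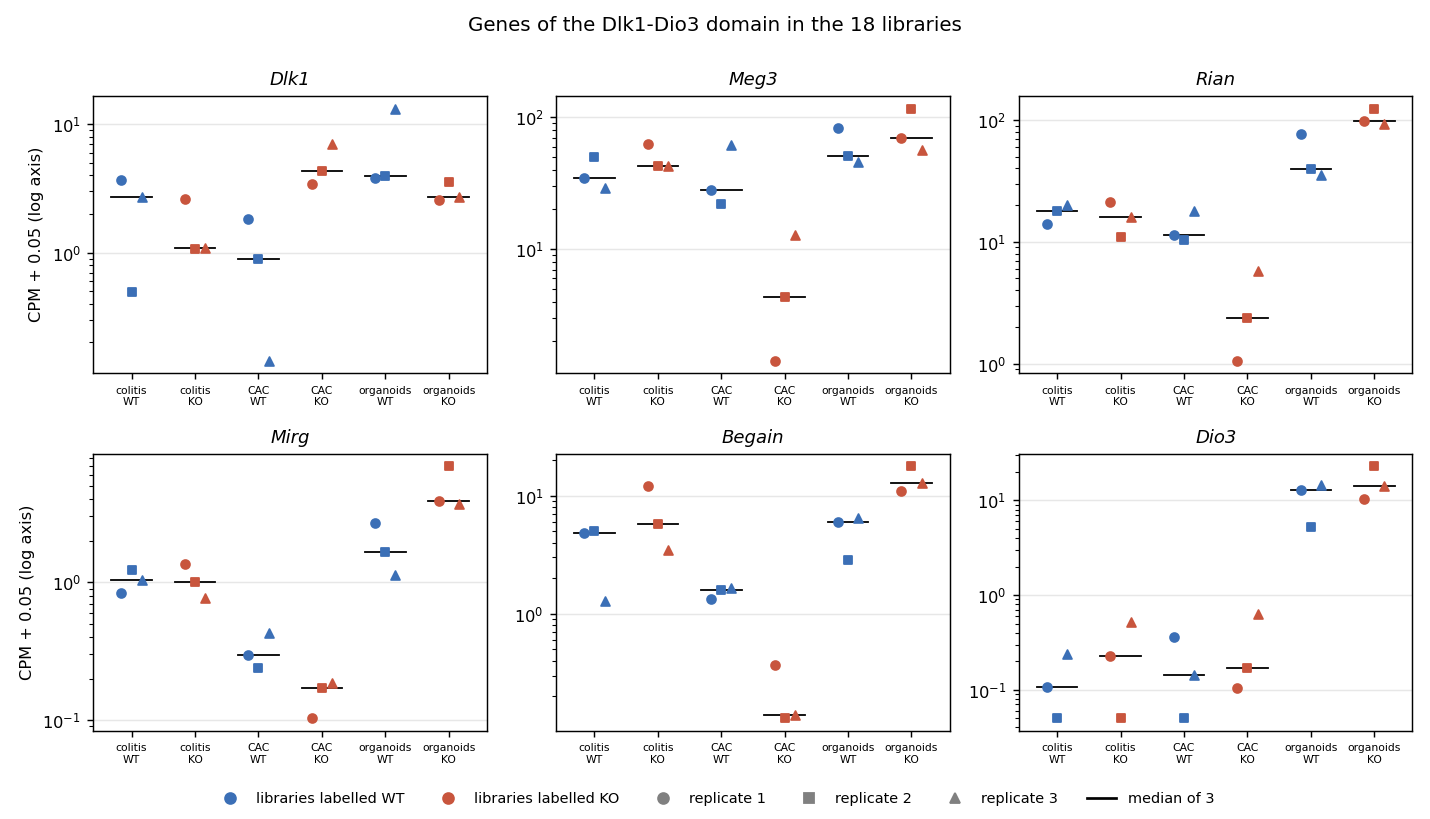
Levels (CPM + 0.05, log axis) of Dlk1, Meg3, Rian, Mirg, Begain and Dio3, genes of 1 imprinted domain on chromosome 12, in every library by model and labelled genotype; shapes are replicates and bars medians of 3 libraries. Meg3, Rian and Begain are lowest in the KO-labelled CAC libraries (Rian 1.01 to 5.70 CPM), Dlk1 is not, and Dio3 leaves the floor only in the organoids.

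Other parts of the IGF system were examined because Igf2, Grb10 and Plagl1 act through it. The list was drawn up with earlier results of these data known, so nothing is read from its shares. Of 23 listed genes, 0 of 20 tested in colitis passed by edgeR (3 at an unadjusted p under 0.05, and Pappa2 by DESeq2) and 0 of 18 in CAC (6 at an unadjusted p under 0.05, and Igf2bp2, Igfbp2 and Igfbp6 by DESeq2). Over all genes the shares were 0.0902%, 10.4% and 2.06% in colitis and 5.37%, 33.8% and 13.9% in CAC, in the same order. In the organoids 8 of 19 passed (42.1%, beside 15.0% of all genes), 5 higher and 3 lower, with a median log2 fold change of 0.45. The KO-labelled organoids also held more fibroblast marker RNA, between 39260 and 48880 CPM against 8998 to 23380, whose part was not tested. Sex and genotype cannot be told apart in these libraries. The ligand Igf1 rose from 228, 149.8 and 90.0 CPM in WT-labelled to 617, 540.4 and 466 CPM in KO-labelled libraries (1.76, SE 0.30, edgeR adjusted p = 0.00484), and its receptor Igf1r from 77.5, 48.8 and 64.3 to 146, 175 and 177 CPM (1.35, SE 0.17, edgeR adjusted p = 0.0019). Igf2r, the imprinted receptor that clears IGF2, was higher in each KO-labelled library, 430.2, 519.8 and 498 CPM against 395, 320.2 and 294 CPM, but under the fold threshold (0.48, SE 0.15, edgeR adjusted p = 0.0347).

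Among proteins that bind or release IGFs, Stc1 (2.65, SE 0.33, edgeR adjusted p = 0.00189) and Pappa (2.20, SE 0.27, edgeR adjusted p = 0.00185) rose most. PAPPA is the protease that cuts IGF-binding proteins, and stanniocalcin 1 is known to inhibit it. Pappa went from between 15.2 and 29.5 to between 75.6 and 105.6 CPM, and Stc1 from between 6.00 and 16.5 to between 57.1 and 75.8 CPM. Igfbp5, a binding protein of mesenchyme, rose from between 558 and 925 to between 1167 and 1759 CPM (1.03, SE 0.23, edgeR adjusted p = 0.0114). Igfbp2 fell from between 240.1 and 542 to between 93.3 and 166 CPM (−1.59, SE 0.35, edgeR adjusted p = 0.0112), Igfbp1 from between 4.15 and 6.67 to between 0.561 and 1.72 CPM (−2.43, SE 0.41, edgeR adjusted p = 0.00477), and Igfals, the acid-labile subunit, from between 1.82 and 3.27 to between 0.842 and 1.49 CPM (−1.21, SE 0.36, edgeR adjusted p = 0.0341). Igf1, Igf1r, Igfbp1, Pappa and Stc1 passed whichever library was left out. Igfbp2 was lost without KO-labelled replicate 2, Igfbp5 without WT-labelled replicate 3 or KO-labelled replicate 2 or 3 and under upper-quartile scaling, and Igfals without WT-labelled replicate 2 or any KO-labelled one. All 3 were also lost with a fit of all libraries. The RNA-binding protein Igf2bp2, which attaches to Igf2 mRNA, was between 89.6 and 117.5 against 136.5 to 155.5 CPM in the organoids (0.49, SE 0.13, edgeR adjusted p = 0.0191, under the fold threshold), and Igf2bp1 and Igf2bp3 stayed at or under 1.05 CPM there.

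**Figure D5:**
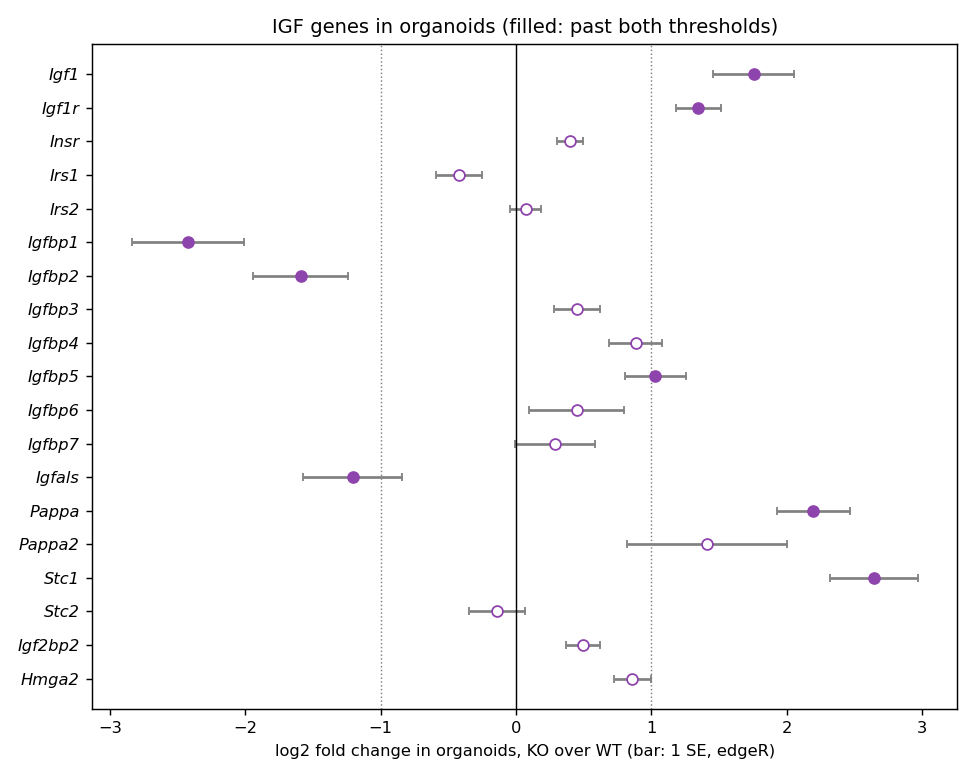
Log2 fold change of KO-labelled over WT-labelled organoids (x axis, bars of 1 SE) for the 19 tested genes of the IGF system, from the ligand Igf1 and the receptors at the top to Igf2bp2 and Hmga2 at the bottom; filled points passed both thresholds and dotted lines mark a 2-fold difference. Stc1, Pappa, Igf1, Igf1r and Igfbp5 lie to the right, and Igfbp1, Igfbp2 and Igfals to the left.

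Of the genes listed for imprint maintenance, 1 passed these thresholds in any genotype comparison. The list holds 18 genes, among them Ctcf, the DNA methyltransferases with Uhrf1, and the KRAB zinc finger proteins Zfp57 and Zfp445 with Trim28. It also holds Dnmt3l, Tet1, Tet2 and Tet3, so it is not made only of genes that keep methylation. By edgeR 0 of 16 tested passed in colitis (0 at an unadjusted p under 0.05, 0 by DESeq2), beside 0.0902% of all genes (10.4% and 2.06%). In CAC 0 of 16 passed (7 at an unadjusted p under 0.05, 0 by DESeq2), beside 5.37% (33.8% and 13.9%), and 15 of 16 were fitted higher in the KO-labelled libraries, with a median log2 fold change of 0.45 against 0.01 over all genes. The maintenance methyltransferase Dnmt1 was 50.8, 63.9 and 37.8 CPM against 109.8, 101.4 and 91.7 CPM there (0.94, SE 0.20, edgeR adjusted p = 0.0483, under the fold threshold). In the organoids 1 of 16 passed, beside 15.0%, which was Zfp57, from 4.55, 4.55 and 5.19 to 11.6, 9.74 and 10.1 CPM (1.10, SE 0.18, edgeR adjusted p = 0.00423), and it passed whichever library was left out. Dnmt1 (0.51, SE 0.18, edgeR adjusted p = 0.0549), Uhrf1 (0.36, SE 0.31, edgeR adjusted p = 0.387) and Ctcf (−0.23, SE 0.12, edgeR adjusted p = 0.155) did not pass in the organoids. Of 4 Notch genes, listed because Dlk1 belongs to that ligand family, 2 passed in the organoids, beside 15.0% of all genes. They were Notch2 (log2 fold change 1.48, SE 0.25) and the target Hey1 (−1.18, SE 0.21), and the call of Hey1 was lost with a fit of all libraries. By edgeR 0 of 4 passed in colitis (1 at an unadjusted p under 0.05, 0 by DESeq2) and 0 of 4 in CAC (2 at an unadjusted p under 0.05, and Notch1 by DESeq2), beside 0.0902% (10.4% and 2.06%) and 5.37% (33.8% and 13.9%) of all genes.

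The models themselves can be set side by side within each label. These comparisons share the CAC libraries, and tissue and culture differ in many cell types: endothelial markers were between 112 and 203 CPM in tissue and between 3.67 and 9.25 in organoids, and Cd3e, of T cells, was at 0 in all organoid libraries. Y-linked RNA was between 187.9 and 228.4 CPM in the WT-labelled CAC libraries and 0 in the WT-labelled organoids, so sex and model cannot be told apart in that comparison, nor in the differences of genotype effects between organoids and CAC. Between KO-labelled colitis and CAC libraries, summed smooth muscle markers went from between 4990 and 14530 to between 113 and 242 CPM, with 6 of 6 of them and 5 of 6 neuronal and glial markers lower in every library, and their part was not tested. From colitis to CAC, H19, Plagl1 and Cdkn1c were higher under both labels, with log2 fold changes of 4.76, 2.26 and 1.22 in WT-labelled and 6.09, 2.75 and 1.81 in KO-labelled libraries. Meg3, Peg3 and Grb10 were level or higher in the WT-labelled comparison (−0.02, 0.81 and 0.15) and lower in the KO-labelled one (−2.99, −1.35 and −1.16), where Meg3 was at −4.08 without CAC replicate 3. Of the members, 3 of 9 and 6 of 9 were past the thresholds, where 13.6% and 37.1% of all genes were, and nothing is read from these counts either. From CAC to organoids, the log2 fold changes were 1.01 and 3.46 for Grb10, 2.77 and 1.15 for Cdkn1c, and 3.86 and 2.49 for Igf2 (WT-labelled, then KO-labelled). The KO-labelled value of Igf2 ran from 1.98 without CAC replicate 1 to 4.19 without CAC replicate 2. H19 was at 6.18 (SE 0.90) and 1.70 (SE 0.73), and at 7.78 and 3.47 without CAC replicate 2. Dlk1 was at 2.87 and −0.75, the WT-labelled value running from 2.00 without organoid replicate 3 to 3.68 without CAC replicate 1. Here 6 of 9 and 4 of 9 members were past them, beside 44.3% and 44.4% of all genes.

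Other imprinted genes moved between the models too. From colitis to CAC, 7 of 58 tested changed in WT-labelled libraries and 21 of 58 in KO-labelled ones, beside the same 13.6% and 37.1%. Slc38a4 rose in both (2.49, edgeR adjusted p = 0.0177, and 3.03, edgeR adjusted p = 0.0012), but in WT-labelled libraries the call was lost without colitis replicate 2 or 3 or CAC replicate 2, and in KO-labelled ones the value was 1.91 without CAC replicate 2. In KO-labelled libraries the largest rise, leaving out genes whose group means both lay under 1 CPM, was of Tspan32 (3.12, SE 0.62, edgeR adjusted p = 0.000624), whose CAC values ran from 6.16 to 74.2 CPM and whose value was 1.93 without CAC replicate 2, below Atp10a in the same setting. The largest falls were of Ndn (−7.70, SE 0.74, edgeR adjusted p = 2.07e-06) and Begain (−5.44, SE 0.68, edgeR adjusted p = 1.6e-05), with Ndn from −7.07 to −11.6 as CAC libraries were left out, and Begain from −4.81 without colitis replicate 1 to −6.25 without CAC replicate 1. From CAC to organoids, 29 and 24 of 58 changed, beside the same 44.3% and 44.4%. Dio3 rose most in WT-labelled libraries (6.34, SE 0.96, edgeR adjusted p = 4.34e-05, and 8.09 without CAC replicate 1), and Ndn in KO-labelled ones (7.51, SE 0.74, edgeR adjusted p = 5.68e-07, and from 6.88 to 11.5 as CAC libraries were left out). Trpm5, the taste-signalling channel of tuft cells, fell in WT-labelled libraries (−3.32, SE 0.59, edgeR adjusted p = 0.000175, and −2.27 without CAC replicate 3), and the actin-binding gene Ppp1r9a in KO-labelled ones (−2.01, SE 0.18, edgeR adjusted p = 2.08e-07).

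Per kb of exon, H19 was the most abundant member in the organoids and among the least abundant in colitis. Mean levels in WT-labelled organoids were 113.3 ± 33.5 CPM/kb (SD, n = 3) for H19, 44.8 ± 11.1 for Cdkn1c and 21.1 ± 3.57 for Plagl1, and in WT-labelled colitis 0.0546 ± 0.0342, 2.81 ± 0.711 and 0.61 ± 0.101. Ordered by group mean, H19 ran from WT-labelled organoids down to KO-labelled organoids, KO-labelled CAC, WT-labelled CAC and the colitis groups, and from KO-labelled CAC downward each group overlapped its neighbour. Across the 18 libraries, on log2(CPM + 1), Cdkn1c (Pearson r = 0.962) and Plagl1 (0.941) followed H19 more closely than Igf2 did (0.729). Igf2 was at or under 0.464 CPM in every tissue library, so the added 1 and counting error weigh on its value. The 5 genes most like H19 among 15896 ranked were Usp30, Ahr, Aplp2, Tpbg and Slc14a1 (r between 0.969 and 0.979), and none of them was among the 5 highest by Spearman correlation. For Igf2 they were Gm12279, Cpeb2, Gsto2, Dnajb4 and Ctsf (r between 0.916 and 0.931), 3 of which were among the 5 highest by Spearman correlation. These values describe a contrast between models that all 18 points share.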

How the data were processed

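RNA of 18 samples, 3 per labelled genotype in colitis, CAC and organoids, was sequenced (TruSeq, paired-end NovaSeq reads) and mapped to mm10. The authors deposited raw counts per gene as whole numbers, without normalization. The submitters' notes name STAR 2.6.1d, HTSeq 0.11.2 and DESeq2, whereas the paper names Cufflinks and Gencode v.M8. The authors' own comparisons, deposited as fold changes with p-values, were not used.

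Members and gene lists were chosen with earlier results of these data known. Counts were filtered (filterByExpr), TMM-scaled and tested with edgeR 4.0.16 in R 4.3.3 (quasi-likelihood, Benjamini-Hochberg over all genes), with a separate fit for each model's genotype comparison. Model comparisons and differences of genotype effects used a fit of all 18 libraries. CPM used TMM factors over all libraries. Positions and exon lengths came from GENCODE M21 (36700 identifiers matched, 99.84%), and sequences from RefSeq. Named genes are the members, listed genes past the thresholds in a genotype comparison, up to 3 imprinted genes in each direction with the largest change between models (leaving out genes whose group means both lay under 1 CPM), and fixed IGF and maintenance genes. The 2 Notch genes fall outside that rule and were picked with their values known. Alternatives were RLE and upper-quartile scaling, no filter, DESeq2 1.42.0, a replicate block, a Y-linked covariate, a fit of all libraries, and each library left out. On simulated data with 4-fold changes, 173 of 199 (colitis), 140 of 198 (CAC) and 190 of 199 (organoids) changed genes were recovered, with 13, 3 and 4 false calls. Deviations of same-numbered samples correlated at 0.262, 0.114 and 0.531 in colitis, each over the 0.1 used to treat numbers as pairs, although differently numbered samples reached 0.279 and 0.244. The 8 listed genes (Ins2, Zim2, Zim3, Apeg3, Copg2os2, Magel2, Snurf and Hymai) were not analysed here. Also, 1 marker gene is not reported here and was left out of its list.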

Additional observations from a re-analysis of the deposited data

Results flagged for a closer look

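Some members differed in opposite directions between models, with every KO-labelled library on 1 side of all WT-labelled ones in each model. The values are log2 fold changes, and no test of the difference between models is given, since the members were chosen with these values known. Dlk1 was 2.33 in CAC and −1.28 in the organoids, Plagl1 1.16 and −1.33, Cdkn1c 0.66 and −0.96, and Grb10 −0.91 and 1.55. The organoid value of Dlk1 was −0.43 without WT-labelled replicate 3. Plagl1 was also 0.71 in colitis against −1.33 in the organoids. For Peg3 the colitis value was 0.85, against −1.37 (CAC) and −0.79 (organoids). Separation of the labels was common, at 17.2% (colitis), 45.2% (CAC) and 53.3% (organoids) of all genes tested. The share of all genes that separated in opposite directions between models is not given, so nothing is read from this pattern. Y-linked RNA was present only in the KO-labelled organoids, so genotype cannot be separated from sex there.

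For other imprinted genes the difference between the genotype effects of 2 models was tested as an interaction in edgeR. CAC minus colitis, it was −6.56 for Ndn (SE 0.89, adjusted p = 0.000612), −4.13 for Begain (SE 0.87, adjusted p = 0.0072) and −1.99 for Sgce (SE 0.35, adjusted p = 0.00297), and 11.9% of all genes passed. Organoids minus CAC, where 18.9% of all genes passed, it was 6.99 for Ndn (adjusted p = 0.000157), 4.63 for Begain (adjusted p = 0.00172), 2.85 for Sgce (adjusted p = 0.00012), 3.16 for Rian (adjusted p = 0.0025), 2.66 for Mirg (adjusted p = 0.0141) and 2.28 for Dcn (adjusted p = 0.000226) by edgeR. Each of these passed whichever of 12 libraries was left out. With no Ndn read in 2 KO-labelled CAC libraries, its differences are poorly fixed, and without KO-labelled CAC replicate 3 they were −10.5 (CAC minus colitis) and 10.9 (organoids minus CAC). With 1 library left out, CAC minus colitis ran from −4.94 to −3.51 for Begain, and organoids minus CAC from 4.30 to 5.46 for Begain and from 2.77 to 4.01 for Rian. The WT-labelled organoids held no Y-linked RNA, unlike all other libraries, so sex and model cannot be told apart in the second difference. Slc38a4 was −2.50 (SE 0.86, edgeR adjusted p = 0.0447) and kept its call in 4 of 12, at −1.37 without KO-labelled CAC replicate 2. Smooth muscle markers moved with these genes, with 6 of 6 lower in every KO-labelled CAC library and 5 of 6 higher in every KO-labelled organoid library, and their part was not tested.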

How the results depend on the processing

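Counts of genes past both thresholds moved by over 1.5 times as follows, and the cause was not tested. In colitis the count of other imprinted genes, 0 by edgeR, was 2 with no filter, 2 with DESeq2, 1 with the replicate block, 1 with the Y-linked covariate and 1 with a fit of all libraries, and that of IGF genes, also 0, was 2, 1 (DESeq2) and 1 (covariate). In CAC the 3 imprinted genes became 6 with no filter, 9 with DESeq2, 10 with a fit of all libraries and 0 with the Y-linked covariate, and the 0 IGF genes became 3 with DESeq2, 1 with the replicate block and 4 with a fit of all libraries. Calls over all CAC genes moved too, from 5.37% to 13.9% with DESeq2, 226 higher and 1415 lower of 32427 with no filter, and 729 higher and 2105 lower of 19390 with a fit of all libraries. The 10 imprinted and 8 IGF genes in organoids became 5 and 5 with a fit of all libraries. The replicate block took the IGF genes of CAC against colitis (WT-labelled) from 4 to 2. For the difference CAC minus colitis the 1 maintenance gene, Dnmt1, became 2 with no filter and 2 with DESeq2, and for organoids minus CAC 0 became 1 with DESeq2.

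With each library left out in turn, the counts of imprinted, IGF and maintenance genes ran from 0 to 2, 0 to 2 and 0 to 0 in colitis, from 0 to 4, 0 to 0 and 0 to 1 in CAC, and from 6 to 11, 5 to 9 and 1 to 1 in organoids. Between CAC and colitis they ran from 3 to 8, 1 to 5 and 0 to 1 (WT-labelled), and maintenance from 2 to 6 (KO-labelled). For the differences of genotype effects they ran from 5 to 10, 1 to 6 and 1 to 3 (CAC minus colitis), and from 4 to 9 and 0 to 1 for IGF and maintenance genes (organoids minus CAC).

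Correlations of same-numbered samples were not all over 0.1 in CAC (0.0259, 0.224 and 0.0758) or organoids (−0.214, −0.0914 and 0.0729), and with the block the CAC imprinted count was 4, with Rian added, and the organoid counts were 9 (imprinted, without Slc38a4) and 7 (IGF, without Igfals). The Y-linked covariate could not be fitted in the organoids. With CPM of the deposited total in place of TMM-scaled CPM, mean levels were lower by over 1 SD for 6 members in KO-labelled organoids (H19, Dlk1, Peg3, Mest, Plagl1 and Cdkn1c) and higher by over 1 SD for 3 in KO-labelled CAC libraries (Plagl1, Cdkn1c and Grb10). No fold change reversed its direction among results with a call. H19, at 1 to 4 reads per WT-labelled colitis library, was left out of the colitis fit by the low-count filter. Its summed reads, scaled to depth, gave a KO over WT ratio of 2.67 (1.07 to 7.51, counting error only). KO-labelled replicate 1 held 11 of the 19 KO-labelled reads, and the libraries overlapped (WT-labelled 0.0561 to 0.223 CPM, KO-labelled 0.0599 to 0.658 CPM). The interval leaves out the spread between libraries, so nothing is read from it.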
